A study of Mus musculus with 2 samples.

Results

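The KDM2A ChIP library from mouse embryonic stem cells contained 2320 narrow but tall regions of enrichment, no more than 500 bp wide and with at least 15 KDM2A tags in their highest 250 bp bin. They were found by counting 1 tag per position and strand in bins of chromosomes 1 to 19, after moving each tag 50 bp toward its 3' side. Bins counted as enriched with at least 7 KDM2A tags, at least 3 times the scaled input and fewer than 8 input tags, and enriched bins with gaps of up to 500 bp were merged into regions. Of 9889310 bins, 122875 (1.24%) were enriched, and they merged into 51078 regions. The narrow tall regions were 4.54% of these. Another 11491 regions were equally tall and wider than 500 bp, so that 16.8% of all tall regions were narrow (95% Wilson interval 16.2% to 17.4%). With ChIP and input exchanged, 0.0329% of bins were enriched, and 9 of 3235 regions (0.278%) met the same limits of width and height.

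KDM2A is a demethylase of histone H3 lysine 36 that removes mainly the dimethyl state. Its zinc finger CxxC domain binds CpG dinucleotides that are not methylated, which in mammalian genomes are concentrated in CpG islands. These are stretches of CpG-rich DNA that often carry the promoter of a gene. How the regions described here lie to CpG islands was not analysed.

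Both libraries came from untreated V6.5 embryonic stem cells. The strain is labelled C57BL/6, and the growth protocol describes the line as a cross of a C57BL/6 female with a 129/sv male. The cells were grown on inactivated feeder cells and passaged without feeders before use, and 1 library was made from DNA precipitated with a KDM2A-specific antibody and 1 from input DNA, each with 18 PCR cycles. Sequencing gave 10042076 KDM2A tags, which fell on 9564671 different positions and strands, and 9760426 input tags, which fell on 7764852. On chromosomes 1 to 19 this gave on average 0.95 KDM2A and 0.767 input tags per bin when each position and strand was counted once. With 1 library per condition and no replicates, no value below was tested between conditions, and all intervals cover counting error only. The deposited positions are on the mm9 build, for which no sequence or annotation was used here, so the regions are given by position and without gene names or DNA sequence.

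The narrow tall regions are described first by the values that chose them, which are no evidence of their own. Of the 2320 regions, 723 consisted of a single bin and 1597 of a pair of neighbouring bins. The highest bin held between 15 and 74 KDM2A tags, with a median of 17 and quartiles of 16 and 20. Most regions lay close to the limit, as 530 (22.8%) had exactly 15 tags in the highest bin, and 738 (31.8%) had at least 20. At least 30 tags were reached by 66 (2.84%) and at least 40 by 9. In the wider tall regions, whose median width was 1250 bp, the median highest bin held 22 tags and 21.6% reached 30. The narrow tall regions were thus mostly in the lower part of the range of tall regions.

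**Figure D1:**
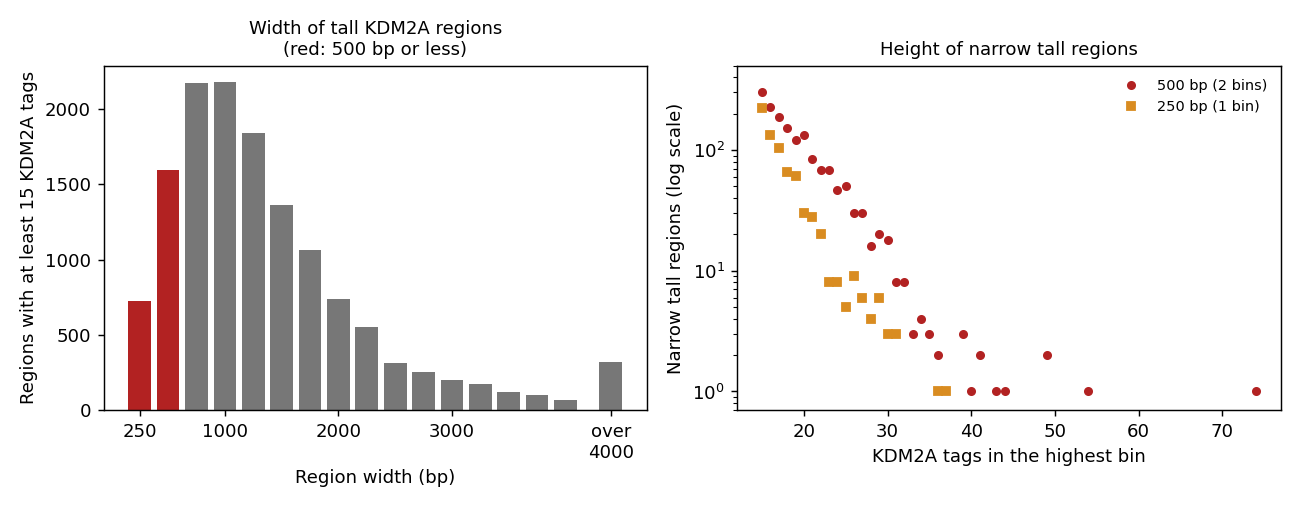
Left, number of regions with at least 15 KDM2A tags in the highest bin by region width in bp, with narrow regions in red and all widths over 4000 bp in the last bar. Right, number of narrow tall regions (log scale) by KDM2A tags in the highest bin, for regions of 250 bp and 500 bp; most have fewer than 20 tags, and the highest has 74.

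In the pairs of bins, the lower bin held a median of 11 KDM2A tags, and in 386 of 1597 pairs it also reached 15. Whole regions held a median of 27 KDM2A tags and 2 input tags, and 395 regions held no input tag. Summed over all narrow tall regions there were 62923 KDM2A tags and 4388 input tags, a ratio of 11.6 to scaled input (exact 95% interval 11.3 to 12.0). The same ratio was 10.6 in all wider tall regions (10.5 to 10.7) and 12.2 in those of 750 and 1000 bp (12.0 to 12.5), so that the narrow regions lay between them. The narrow tall regions covered 0.0396% of the bins and held 0.670% of the KDM2A tags and 0.0579% of the input tags.

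Regions on either side of the height limit had similar values. The 530 regions with 15 tags in the highest bin held 15 to 30 KDM2A tags in all, with a median of 22. The 669 regions of the same width with 14 tags held 14 to 28, with a median of 21. The 2175 tall regions that were 750 bp wide, 1 bin more than the limit, had a median highest bin of 20 tags and a median of 44 tags in all. Both limits lie within a continuous range of heights and widths.

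The KDM2A signal around the highest bin follows in part from the rule, which allows no further enriched bin within 500 bp of a narrow region and requires others in a wider one, and is given as a description. In the narrow tall regions the mean was 18.8 tags in the highest bin, 7.19 and 7.52 tags in the bins before and after it, and 3.30 and 3.32 tags at a distance of 500 bp. At 1000 bp it had fallen to 2.37 and 2.31 tags. In the wider tall regions the corresponding means were 24.2 tags, then 13.6 and 14.2, then 8.92 and 9.33, and 4.48 and 4.66 tags at 1000 bp. Mean input also follows in part from the rule, since some bins with 7 or more KDM2A tags were left out for their input. In the narrow tall regions mean input was 1.24 tags in the highest bin and 1.37 and 1.31 in the bins before and after it. At 1000 bp it was 1.11 and 1.08. In regions of 500 bp or less with fewer than 15 tags it was 0.813 in the highest bin and 1.30 and 1.31 beside it. In the wider tall regions it was 1.14 tags in the highest bin, 1.09 and 1.07 beside it, and 1.14 and 1.15 at 1000 bp.

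**Figure D2:**
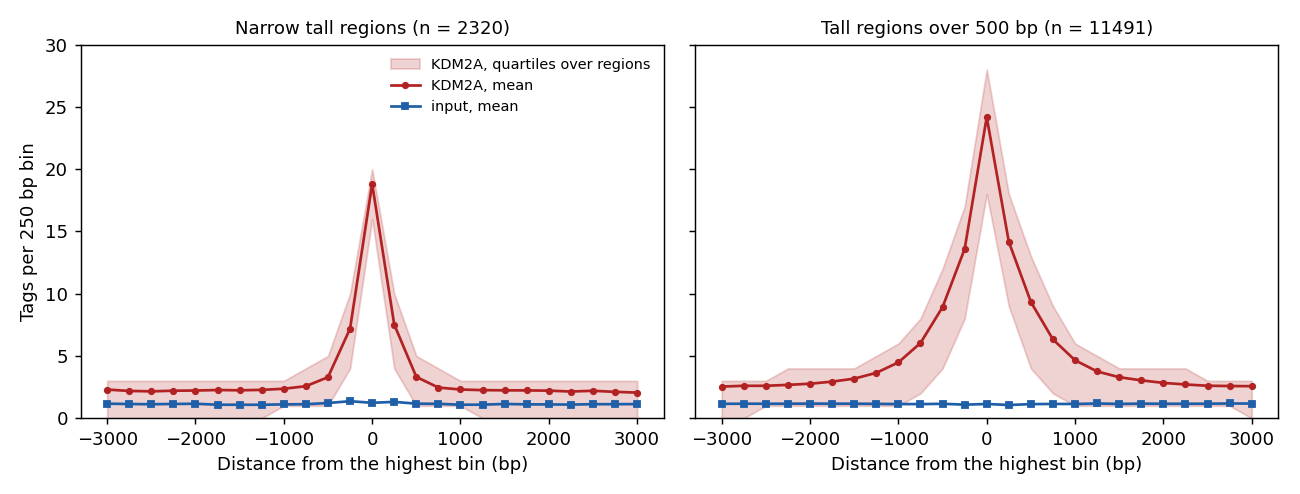
Tags per 250 bp bin against distance from the highest bin in bp, for the 2320 narrow tall regions and the 11491 tall regions over 500 bp. Lines are means over regions of KDM2A and input tags, and the shaded band spans the quartiles of KDM2A tags; in the narrow regions mean KDM2A tags are 3.30 and 3.32 at 500 bp, and mean input is between 1.08 and 1.37 throughout.

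The surroundings were not free of KDM2A tags. Between 1 and 5 kb from the narrow tall regions there were 2.17 KDM2A tags per bin (exact Poisson 95% interval 2.16 to 2.18), above the average bin, 2.49 around all wider tall regions (2.48 to 2.49) and 2.01 around those of 750 and 1000 bp (2.01 to 2.02). Input in the same places was 1.13 tags per bin around the narrow regions (1.12 to 1.14), 1.18 around all wider ones (1.17 to 1.18) and 1.11 around those of 750 and 1000 bp (1.10 to 1.11). The means of both libraries were therefore above their averages over all bins. These averages include the 35.7% of bins that held no tag of either library, against 12.4% of bins within 2 kb of the narrow tall regions. The part of such bins in the difference was not tested. Other enriched regions in these surroundings were included in the means. At 2000 bp on either side of the highest bin, the median over narrow tall regions was 1 KDM2A tag.

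The edges of most narrow tall regions were set by tag number. Of 4640 bins directly next to a region, 84.8% had fewer than 7 KDM2A tags, 14.9% had 7 or more but less than 3 times the scaled input, and 14 bins (0.302%) had too many input tags. The median of these bins was 4 KDM2A tags. In 1236 regions (53.3%) at least 1 of the bins on either side held 5 or 6 tags, just below the limit, and in 165 regions (7.11%) neither held more than 2. In 657 regions (28.3%) a neighbouring bin had 7 or more tags and was left out for its input. In the wider tall regions these 3 shares of regions were 49.5%, 8.92% and 20.1%, and 89.3% of neighbouring bins had fewer than 7 tags. In regions of 500 bp or less with fewer than 15 tags they were 35.5%, 22.7% and 10.0%, and 94.8% of neighbouring bins. When the extent of the signal was taken instead as the unbroken run of bins with at least 3 KDM2A tags around the highest bin, the median was 1000 bp in the narrow tall regions and 2000 bp in the wider ones. By this measure 272 of the 2320 (11.7%) were still 500 bp or less, and 1130 (48.7%) were over 1000 bp.

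Width also depended on where the bins began. With bins starting at the middle of the former ones, the number of narrow tall regions hardly changed, at 2256, but 904 of the 2320 (39.0%) overlapped one of these. The others had become wider than 500 bp and remained tall in 662 cases, were narrow with fewer than 15 tags in 512, were both wider and lower in 215 and were not enriched in 27. The share that remained narrow and tall was 30.5% for regions with 15 to 17 tags in the highest bin and 49.1% for those with 18 to 24. It was 43.0% for the 242 regions with 25 tags or more. The count of narrow tall regions therefore changed little with the grid, whereas which regions were counted changed for most of them.

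The 10 regions with the most tags in the highest bin show the range of shapes. The highest of all lay on chromosome 1 from 197067751 to 197068250. Its highest bin held 74 KDM2A tags, 38 on the plus and 36 on the minus strand, and 7 input tags. Fewer than 8 input tags were allowed, and the average bin held 0.767. The whole region had 85 KDM2A tags when each position and strand was counted once, and 136 as deposited. The bins before and after the highest one held 3 and 11 tags, so that most of the counted signal lay in 1 bin. The region on chromosome 12 from 21322001 to 21322500 was of the same form, with 49 KDM2A tags and 1 input tag in its highest bin and 7 and 3 KDM2A tags on either side. So was the region on chromosome 8 from 72108501 to 72109000, with 49 KDM2A tags between bins of 11 and 5.

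Other regions of the 10 were pairs of high bins with sharp outer edges. On chromosome 17 from 24210001 to 24210500, bins of 31 and 39 KDM2A tags lay between bins of 3 and 4, and the region held no input tag. On chromosome 8 from 66328501 to 66329000 the bins held 29 and 44 tags and were followed by 6 tags and then by none. The region on chromosome 8 from 46154251 to 46154750 had bins of 40 and 28 tags, with 0 tags before and 6 after. In each of these the fall at the edge was larger than 20 tags from 1 bin to the next.

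1 region of the 10 was narrow through the limit on input alone. On chromosome 8 from 20019751 to 20020250, bins of 54 and 51 KDM2A tags were followed by a bin of 78, which was left out for its 10 input tags. In the region on chromosome 10 from 82417001 to 82417500, with bins of 41 and 22 tags, the low signal ran on, as the unbroken run of bins with at least 3 tags was 3000 bp long and another enriched region lay 750 bp away. The remaining pair of the 10 lay on chromosome 15 from 76437501 to 76438000, with 43 tags in the highest bin, and on chromosome 16 from 10412001 to 10412500, with 41. 5 of the 10 remained narrow and tall with the moved bins, among them those on chromosomes 1, 12 and 16, and the other 5 were then 750 bp or more wide.

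**Figure D3:**
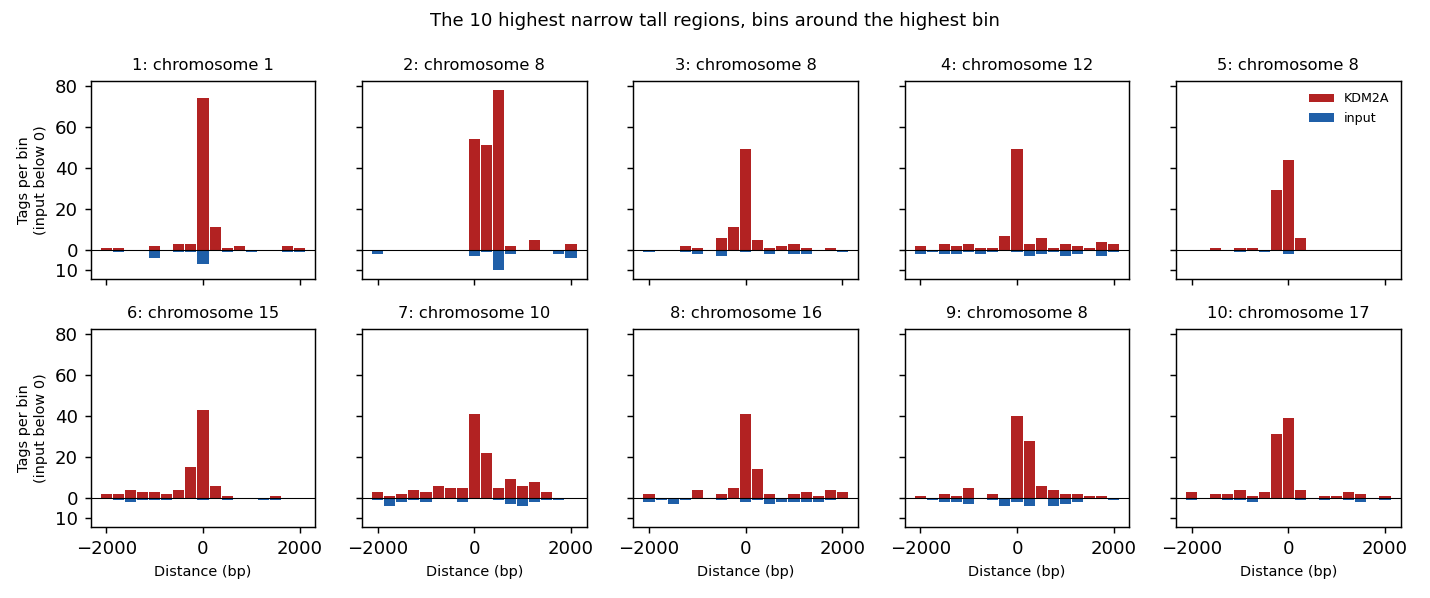
KDM2A tags (red, upward) and input tags (blue, downward) per 250 bp bin against distance from the highest bin in bp, for the 10 narrow tall regions with the most tags in 1 bin. The first has a single bin of 74 tags, and the second, on chromosome 8, continues into a bin of 78 tags that held 10 input tags.

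The 5 highest regions without any input tag had 32 to 41 tags in the highest bin. They included the regions on chromosomes 10 and 17 given above. The third lay on chromosome 8 from 23303251 to 23303750, with bins of 39 and 28 tags between bins of 9 and 7, which held 3 and 2 input tags. The fourth was on chromosome 18 from 75165251 to 75165750, with 55 KDM2A tags, and the fifth on chromosome 2 from 64860501 to 64861000, with 42. All 5 had tags on both strands, the least even having 13 on the plus and 23 on the minus strand of its highest bin.

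The largest counts next to a narrow tall region were found at a few places, which were chosen here after their values were seen. On chromosome 17, the single bin from 39985751 to 39986000 with 18 KDM2A tags lay beside a bin of 193 KDM2A and 29 input tags. The bin on chromosome 11 from 3050501 to 3050750, with 36 KDM2A and 7 input tags, lay between bins of 113 and 133 KDM2A tags that held 20 and 37 input tags. At both places the adjoining bins were high in both libraries and were left out for their input. Surroundings with at least 3 times the average input were present at 7 of the 2320 regions.

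The rule used strands to keep 1 tag per position and strand and to move tags, and then added both strands together. The balance of strands is therefore not free of the rule. Of the tags in the highest bins of the narrow tall regions, 21626 (49.5%) were on the plus strand. In 39 regions (1.68%) at least 80% of the tags of the highest bin were on 1 strand, and the share was 0.566% in the wider tall regions, which have more tags per bin. Among regions with 15 to 17 tags in the highest bin, these shares were 1.95% of the narrow (1.30% to 2.90%) and 1.88% of the wider regions (1.42% to 2.50%). These intervals overlap, and a difference was not tested.

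The distance between the strands differed on average with what surrounded the narrow tall regions. For each region, all pairs of a plus and a minus strand tag within 500 bp of the centre of the highest bin were taken, with positions as deposited, and the minus strand position less the plus strand position was sorted into steps of 10 bp over the range shown in the plot of strand distances. Shares are of the pairs in this range. Which end of a minus strand read the deposited position marks is not given in the sources used here, so that these distances compare groups of regions and are not fragment lengths. Tags were moved by strand when the regions were chosen, and the part of this in the distances was not tested. The 16 bins within 2 kb of a region were counted as empty where they held no tag of either library. In 1689 regions at most 2 of the 16 were empty, and in 100 regions (4.31%) at least 8 were. Among all wider tall regions 84 (0.731%) had at least 8, among those of 750 and 1000 bp 47 (1.08%), and among regions of 500 bp or less with fewer than 15 tags 1124 (3.67%), so that the share in the narrow tall regions (95% Wilson interval 3.56% to 5.22%) was close to that in the narrow low ones (3.46% to 3.88%). The narrow tall regions had 12.4% of these bins empty and the wider ones 9.14%, compared with 35.7% of all bins.

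In the narrow tall regions with 0 to 2 empty bins, distances were most frequent at 110 to 119 bp, and 8.22% of the pairs, averaged over regions, lay at 20 to 49 bp. In the 100 regions with 8 or more empty bins, distances were most frequent at 30 to 39 bp, and 26.7% of the pairs lay at 20 to 49 bp, against 7.15% at 90 to 119 bp. The share at 20 to 49 bp was 8.31% with 3 to 5 empty bins and 10.6% with 6 or 7, so that it was highest in the last class. In 65 of the 100 regions there were more pairs at 20 to 49 bp than at 90 to 119 bp, compared with 741 of the other 2220 (33.4%). The wider tall regions with 8 or more empty bins had 11.1% of pairs at 20 to 49 bp, and lower regions of 500 bp or less with 8 or more empty bins had 20.8%. The short distance was therefore also seen in regions that were not tall. Input tags allowed the same measure in 34 of the 100 regions, where 14.7% of pairs lay at 20 to 49 bp, against 7.42% in the 1620 narrow tall regions with input pairs. The 34 regions together had 42 input pairs at 20 to 49 bp and 29 at 90 to 119 bp, and 8 of them had more of the former. In 271 lower regions with 8 or more empty bins, input had 9.89% of pairs at 20 to 49 bp and 13.9% at 90 to 119 bp. In 41 wider tall regions with 8 or more empty bins, these input shares were 14.8% and 7.91%, from 10 and 12 pairs in all. Of the 100 regions, 49 remained narrow and tall with the moved bins, and these had 32.6% of pairs at 20 to 49 bp.

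**Figure D4:**
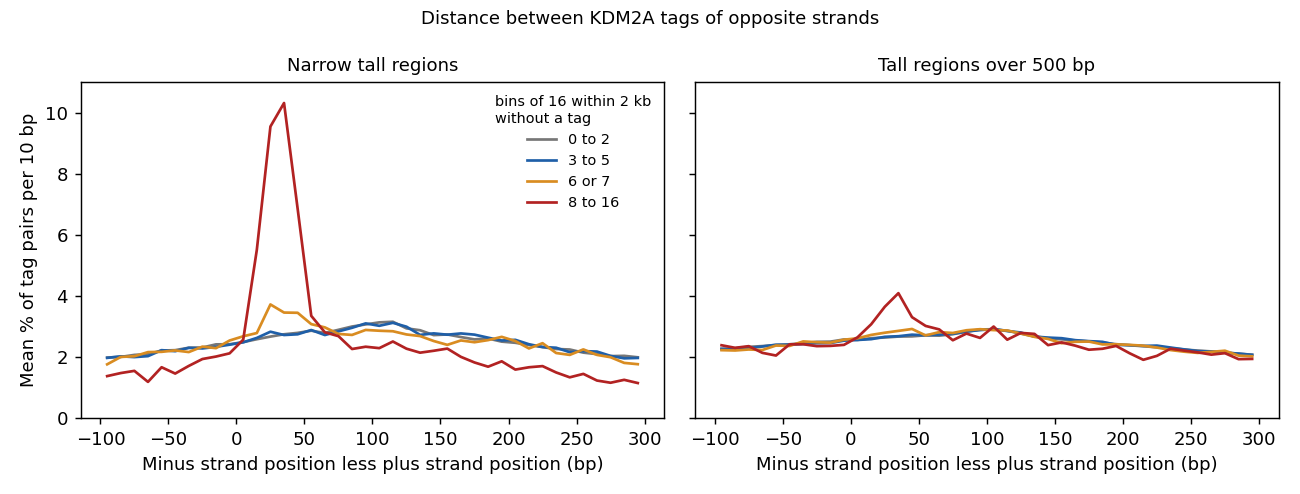
Mean share of tag pairs (percent per 10 bp step) against minus strand position less plus strand position in bp, for KDM2A tags in narrow tall regions (left) and tall regions over 500 bp (right). Lines are regions grouped by how many of 16 bins within 2 kb held no tag of either library; narrow regions with 8 to 16 empty bins have a peak at 30 to 39 bp, which is much lower in the wider regions.

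These 100 regions also had other values that differed from those of the narrow tall regions with 0 to 2 empty bins. A single bin made up 62.0% of them (95% Wilson interval 52.2% to 70.9%), against 31.5% of the regions with 0 to 2 empty bins (29.3% to 33.8%). Their median highest bin, 17 tags, was the same as in the latter, and 3 of them reached 30 tags. An enriched region within 5 kb was present at 7 of them (3.43% to 13.7%), against 55.2% (52.9% to 57.6%). The classes between had intermediate shares, 21.1% with 3 to 5 empty bins (17.6% to 25.1%) and 16.9% with 6 or 7 (10.1% to 26.8%). Since empty bins leave no place for other regions, the difference in enriched regions within 5 kb is partly contained in how the classes were made. The same holds for the share of single bins, since an empty bin beside a region cannot be part of it. The 100 regions were spread over all 19 chromosomes, with 1 to 9 on each.

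Tags beyond the first at a position and strand were left out by the rule and were counted separately. In the narrow tall regions they made up 7.64% of all KDM2A tags (95% Wilson interval 7.45% to 7.84%), in the wider tall regions 6.96%, and over chromosomes 1 to 19 4.77%. In the input library the shares were 23.0% in the narrow and 22.6% in the wider tall regions, and 20.5% over chromosomes 1 to 19. By empty bins, the share of such KDM2A tags was 7.07% in the narrow tall regions with 0 to 2 (6.84% to 7.30%), 7.02% with 3 to 5, 9.88% with 6 or 7 and 18.3% with 8 or more (16.9% to 19.7%). The regions with many empty bins around them were thus also those with the most repeated positions, and the part of either in their width was not tested.

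Examples of this form were chosen here after their values were seen. On chromosome 17 from 7140501 to 7140750, 13 plus and 14 minus strand tags gave 145 pairs at 20 to 49 bp and 0 at 90 to 119 bp, and both neighbouring bins held no KDM2A tag. On chromosome 2 from 90235251 to 90235500, where 15 of the 16 bins around were empty, 25 KDM2A tags gave 91 and 8 pairs. On chromosome 16 from 88029751 to 88030000, the nearest other enriched region was 259750 bp away, and 22 tags gave 80 and 0 pairs.

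The distance of narrow tall regions to other enriched regions lay between those of the groups of wider ones, and no difference was tested. Another enriched region was present within 5 kb of 45.2% of the narrow (95% Wilson interval 43.2% to 47.2%) and of 50.1% of all wider tall regions (49.2% to 51.0%), and the median distance to the nearest was 6250 and 5000 bp. In the tall regions of 750 and 1000 bp, which are nearest in width, the share was 40.1% (38.7% to 41.6%) and the median distance 8000 bp. No other enriched region lay within 50 kb of 253 narrow tall regions (10.9%). This share was 10.2% in all wider tall regions and 12.7% in those of 750 and 1000 bp. In regions of 500 bp or less with fewer than 15 tags it was 8.23%. Of these lower regions 55.1% had another enriched region within 5 kb, and the median distance to the nearest was 4000 bp. Of the narrow tall regions, 64 (2.76%) had another narrow tall region within 5 kb, and the median distance to the nearest was 149625 bp. Whether this is nearer or farther than for other sets of as many regions was not tested.

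Narrow tall regions were found on all 19 chromosomes, from 45 on chromosome 19 to 204 on chromosome 11. Chromosome 8 had 190, which were 8.19% of the total, with 8.54% of all tall regions, 7.12% of the input tags and 5.33% of the bins. The share of tall regions that were narrow was lowest on chromosome 19, at 10.6% (95% Wilson interval 8.01% to 13.9%), and highest on chromosome 13, at 21.9% (18.3% to 26.1%). On chromosome 8 it was 16.1% (14.1% to 18.3%). By height chromosome 8 had the largest share, as 79 of its 190 narrow tall regions (41.6%) had at least 20 tags in the highest bin, compared with 31.8% over all chromosomes, and 9 of the 66 regions with at least 30 tags were there, 4 of them among the 10 highest. On chromosome 11, 49 of 204 reached 20 tags. The limit of 20 tags was not adjusted for tags per bin. Chromosome 8 held 7.54% of the KDM2A tags, and chromosome 11 held 7.74% on 4.93% of the bins. Differences between chromosomes were not tested.

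**Figure D5:**
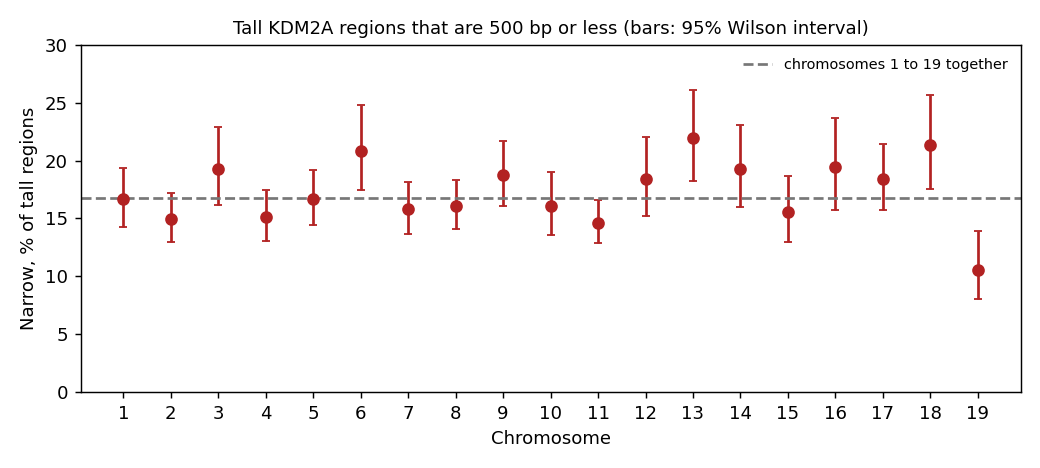
Share of tall KDM2A regions that are 500 bp or less (percent, with 95% Wilson intervals that cover counting error only) on each of chromosomes 1 to 19, with the share over all of them as a dashed line at 16.8%. Chromosome 19 is lowest at 10.6% and chromosome 13 highest at 21.9%.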

How the data were processed

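Genomic DNA of 1 KDM2A ChIP and 1 input library was sequenced by the authors, who deposited raw counts of aligned tags per position of each strand. The submitters' processing notes name Bowtie and mm9, with no version or settings. No position held more than 7 KDM2A or 9 input tags.

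From these deposited counts, 1 tag per position and strand was kept. Input was multiplied by 1.23, the ratio of positions in the libraries. The first base of the first bin was taken as 1. The rule for narrow tall regions and the measures were chosen with earlier results of these data known. Described by position are the 10 regions with the most tags in the highest bin and the 5 highest with no input tag, with ties broken by fewer input tags and then more KDM2A tags in the region. Empty bins, strand distances, the fate of regions with moved bins and 1 input scaling were chosen after seeing the data. Alternatives changed the tags per position, movement of tags, start of the bins, merging, input scaling and limits. Shares have Wilson or exact 95% intervals. The rule was also run on simulated tags with planted regions, from which no value is given. Python 3.11.15, numpy 2.4.6, pandas 2.3.3, scipy 1.17.1 and matplotlib 3.10.9 were used. Planned measures of CpG content and gene annotation were not run, because the reference tables are on another build than the files.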

Additional observations from a re-analysis of the deposited data

Results flagged for a closer look

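Chromosome X was left out by the rule. Applied there, it gave 17 narrow tall regions among 499 enriched regions, and 2 with ChIP and input exchanged. Their highest bins had a median of 16 and a maximum of 28 KDM2A tags, and they were 24.6% of the 69 tall regions on this chromosome. On chromosome Y no narrow tall region was found, and 10 were found with ChIP and input exchanged.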

How the results depend on the processing

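No paired analysis was possible because the ChIP and the input are 1 library each. The number of narrow tall regions stayed within 1.5 times of 2320 in all alternatives except 4310 when only touching bins were merged and 738 with a limit of 20 tags in the highest bin. Of the 2320, 442 (19.1%) were narrow and tall in every alternative other than the height limit, the fixed and the added ones together. Of the 13 regions described by rank, 6 remained with bins starting at the middle of the former ones and 5 with tags not moved.

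With touching bins only, 28.9% of tall regions were narrow, 34.1% of the narrow tall regions were a single bin, 70.5% had an enriched region within 5 kb and the median neighbouring bin held 5 tags. With gaps of up to 1000 bp, 14.8% of tall regions were narrow and 36.2% had an enriched region within 5 kb. With all tags at a position, which also changed the factor on input from 1.23 to 1.03, these shares were 17.8% and 49.5%, 35.4% were a single bin, 3.07% had one-sided strands and the exchanged comparison gave 102 regions. With tags not moved, 14.6% of tall regions were narrow, 3.46% had one-sided strands and the median neighbouring bin held 5 tags. With at least 5 times scaled input, 21.3% were narrow, 36.8% were a single bin, the median neighbouring bin held 5 tags and the exchanged comparison gave 2. With at least 20 tags, 9.01% were narrow, 17.9% were a single bin, 39.8% had an enriched region within 5 kb, 1.08% had one-sided strands, the median highest bin held 23 tags, the median neighbouring bin 4.5, and the exchanged comparison gave 2. With input scaled by bins outside enriched regions, by 0.909, 14.2% were narrow, 29.2% were a single bin and the exchanged comparison gave 4. With input scaled by all deposited tags, chosen after seeing the data, 14.8% were narrow and the exchanged comparison gave 5. The cause was not tested, except where the rule sets the direction. A higher limit on tags must raise the median height. Merging only touching bins keeps all 2320 regions and can only add others from split regions, which then have an enriched region within 5 kb. Merging across gaps up to 1000 bp can only remove narrow tall regions, namely those with an enriched region that near. The other 56 of 90 values stayed within their interval or within 1.5 times.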
